A study of Danio rerio with 6 samples.

Results

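The wild-type mid-section transcriptome of zebrafish at 3 days post fertilization (dpf) was described from the pools labelled wild-type, which are 3 of the 6 samples of the series. They were chosen by their genotype label alone, without regard to any measured value, and no comparison of genotypes was made. Every pool held the mid-bodies of 6 embryos, and 1 pool came from each of the clutches numbered 2, 3 and 4. The embryos were wild-type siblings of *dgat2*sa13945 mutants. They came from in-crosses of heterozygous carriers of this chemically induced nonsense allele. Its line was of Hubrecht long-fin origin and had since been outcrossed to AB fish. Mutagenesis of this kind induces many variants over the genome, and wild-type siblings can inherit them too. All embryos were unfed. Per the study's methods, the clutches were sorted by normal or opaque yolks at 3 dpf, and embryos were put under Tricaine anaesthesia before cutting. No other treatment of them is described. Heads were removed in front of the yolk sac and tails behind the yolk extension. These cut parts were collected for genotyping, and the pools were made of mid-bodies of wild-type siblings. RNA was selected by its poly(A) tail. The label calls the tissue YSL and dorsal musculature.

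The yolk syncytial layer (YSL) is a multinucleate layer that wraps the yolk of a fish embryo. It digests yolk and packs the released lipid into lipoproteins built on apolipoprotein B (ApoB), which microsomal triglyceride transfer protein loads with lipid, and it secretes them into the circulation until the gut takes over. At 3 dpf the liver and gut are young organs, swimming muscle is already contractile, red cells carry embryonic globins and the skin is a thin epidermis.

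Levels are given as TPM, the number of transcripts of a gene in 1000000. This unit takes transcript length and sequencing depth into account, so that levels of different genes can be set side by side. The 3 libraries held 45958694, 49918655 and 48945631 estimated counts for clutches 2, 3 and 4, and 25699 to 25831 genes had counts in a library. Of 32520 genes in the table, 18034 had a mean of at least 1 TPM, 5891 of at least 10, 741 of at least 100 and 152 of at least 1000. Most genes named here had many counts, and how far the pools lie apart limits their precision. As each clutch gave 1 wild-type pool, a pool's own error is not known, differences between pools were described without a test, and the pools' spread joins clutch, dissection and library. In bulk RNA, fewer cells of a type and less RNA per cell cannot be told apart.

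A small number of genes held much of the transcript pool. The 10 highest genes of each pool took 24.7% of TPM in clutch 2, 29.6% in clutch 3 and 31.4% in clutch 4, and the 100 highest took 55.5%, 59.6% and 61.1%. Among the 25 named genes with the highest mean, 11 were fast muscle genes, 8 were encoded by the mitochondrial genome, 3 encoded cytosolic ribosomal proteins and 1, *apoa2*, was an apolipoprotein gene. The remaining genes of the 25 were the actin gene *actc1b* and a row for 5.8S ribosomal RNA. Among the 100 highest named genes the ribosomal protein genes were the most numerous class, with 51, followed by 16 fast muscle, 12 mitochondrial, 4 YSL lipoprotein and 3 epidermal genes. No hepatocyte, intestine or red blood cell gene of the marker lists was among these 100.

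**Figure D1:**
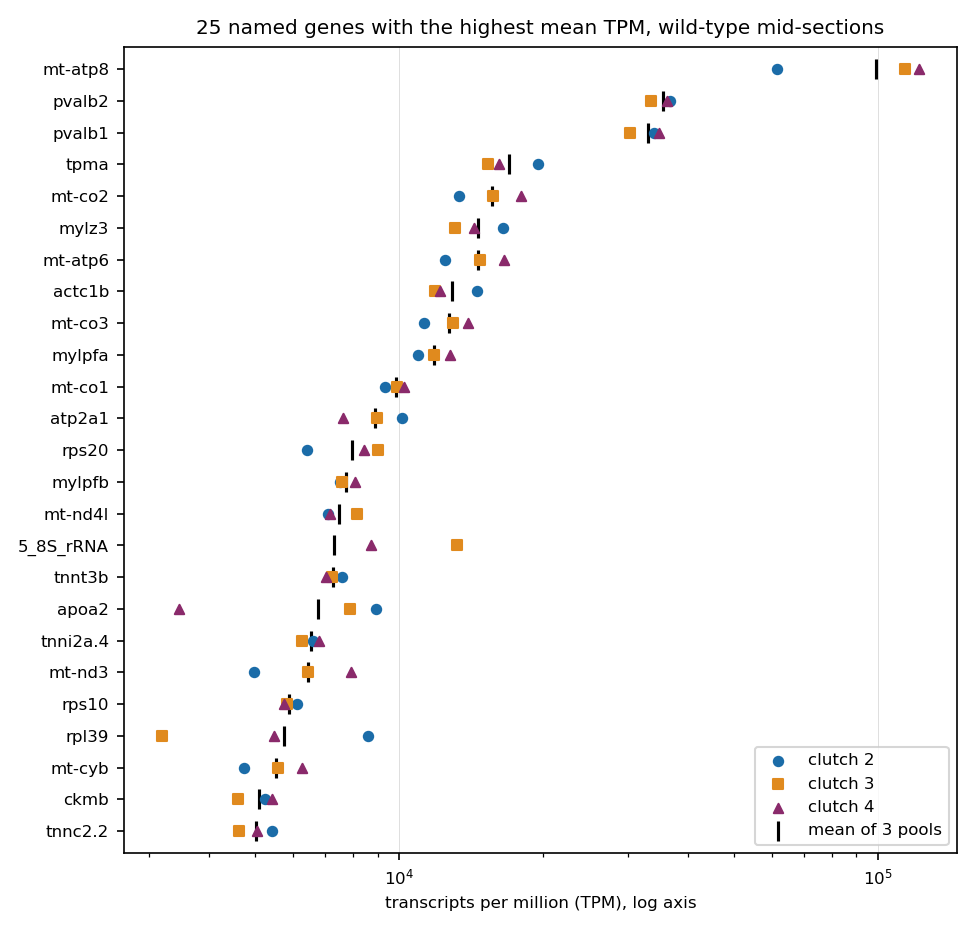
The TPM of the 25 named genes with the highest mean, on a log axis, with 1 point for each wild-type pool and a black tick at the mean. Muscle and mitochondrial genes fill most of the places, *apoa2* has its clutch 4 point at 3458 TPM, far left of the other pools, and the 5.8S rRNA row has no clutch 2 point because it was listed at 0 there.

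The highest named gene was *mt-atp8*, a subunit of the mitochondrial ATP synthase, at 61641, 113784 and 121938 TPM in clutches 2, 3 and 4 (mean 99121 ± 32714, SD, n = 3 pools). Its level per length rests on a very short reading frame that overlaps *mt-atp6*, so its share of reads is uncertain. By CPM (counts in 1000000 counts of the library), with no scaling for length, it ranked 150 among named genes. It was followed by the parvalbumin genes *pvalb2* and *pvalb1*, which encode calcium buffers of fast muscle, and by *tpma*, a tropomyosin. Only 3 of the 25 genes had a range over the pools that lay wholly above the range of the next gene in the order, namely *mt-atp8*, *pvalb1* and *mylpfa*. The order of the other neighbours was within the spread of the pools. By counts, the heavy chain gene *myhz1.1* came first, although it was in place 30 by TPM, as long transcripts give more reads. A gene without a name or a symbol in the table used, ENSDARG00000111458, had 27369, 33875 and 29798 TPM in clutches 2, 3 and 4. These values came from 8470, 12485 and 10975 counts, a mean of 220 CPM against 703 for *mt-atp8*. Its high TPM thus rests on the scaling for length as well. Genes without a name, this one included, together held 9.41% ± 0.449 of TPM (SD, n = 3 pools).

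Marker lists put numbers on the tissues in the mid-section. Mitochondrial genes held 18.3% ± 4.24 of TPM, of which *mt-atp8* alone was 9.91% ± 3.27. Fast muscle held 17.6% (16.5% to 18.5%) and cytosolic ribosomal protein genes 14.5% ± 0.984 (SD, n = 3 pools for each share with an error). The YSL lipoprotein list came next with 2.28% ± 0.751, ahead of epidermis with 1.47% ± 0.183, red blood cell with 0.631% ± 0.0748 and hepatocyte with 0.411% ± 0.128. By CPM, with no scaling for length, the order was another one. Fast muscle led with 18.5%, cytosolic ribosomal protein genes held 6.70% and mitochondrial genes 5.88%. Epidermis (2.19%) then lay above the YSL lipoprotein list (2.03%), and hepatocyte (0.520%) above red blood cell genes (0.280%). On TPM, fibroblast and matrix genes (0.237% ± 0.0313), slow muscle (0.233% ± 0.0161) and intestine (0.186% ± 0.0374) overlapped in range. The lists differ in size and transcript length, and several genes of one list are made by other tissues too, so that the shares describe lists and not cell numbers. Genes of the YSL and muscle lists were present, and so were markers of liver, gut, pancreas, skin, blood, heart, notochord and neural tissue. As the apolipoproteins of the YSL list are also made in the liver, they do not mark the YSL alone.

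**Figure D2:**
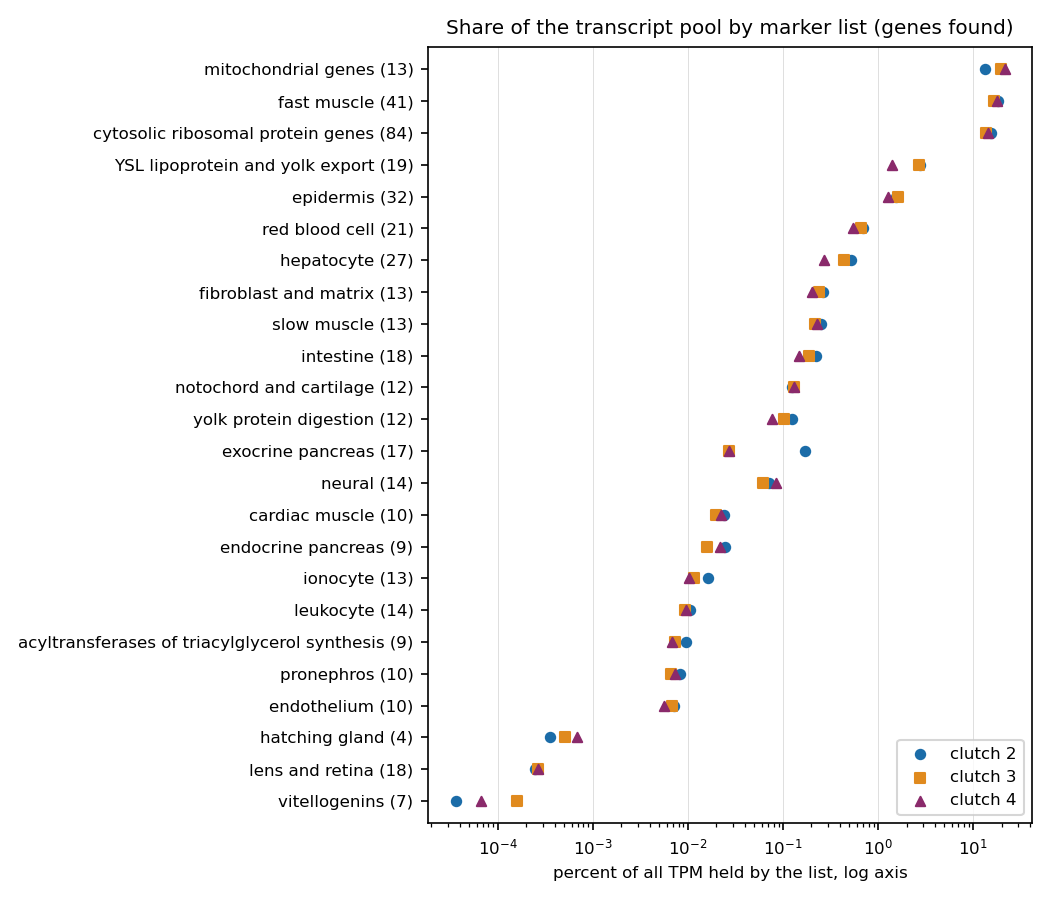
The percent of all TPM held by each marker list, with the number of genes found in brackets, on a log axis, with 1 point for each wild-type pool. Shares run from the mitochondrial genes (13.5% to 21.5%) to the vitellogenins (0.000161% or less). The ratio of the highest to the lowest pool is 6.24 for exocrine pancreas and 4.46 for vitellogenins. It is 1.94 for the YSL list, 1.93 for hepatocyte, 1.92 for hatching gland and smaller for the other lists.

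The YSL lipoprotein and yolk export list was led by apolipoprotein genes of high density lipoprotein. *apoa2* had 8932, 7902 and 3458 TPM in clutches 2, 3 and 4 and ranked 18 among named genes. *apoa1b* had 5545, 5571 and 3624 TPM and *apoa1a* had 4612, 4209 and 2099 TPM. Both encode apolipoprotein A-I, the core protein of high density lipoprotein. *apoc1*, a small exchangeable apolipoprotein, had 2681, 3546 and 2209.7 TPM. These 4 genes held 79.5% of the list's TPM. In all of them the clutch 4 pool was the lowest, and in *apoa2*, *apoa1b* and *apoa1a* the other pools lay close together.

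Lower in the list came the exchangeable apolipoproteins that ride on ApoB particles. *apoea*, an apolipoprotein E gene, had 1044, 1231 and 591 TPM. *apoa4b.1*, one of the apolipoprotein A-IV genes, had 1186, 1097 and 572 TPM, and *apoc2*, which activates lipoprotein lipase, had 1022, 978 and 516 TPM. The clutch 4 pool was again the lowest for each. *afp4*, annotated as a type IV antifreeze protein gene, had 910, 804 and 323 TPM, and *apoa4b.2* had 346, 364 and 103 TPM. *apoeb*, the second apolipoprotein E gene, had 513, 549 and 351 TPM, a narrower gap between clutch 4 and the others.

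The structural core of the particle was at a lower level per length. *apobb.1*, the leading ApoB gene, had 278, 298 and 123 TPM and ranked 338 among named genes, although its very long transcript took 3350, 4017 and 1756 CPM after scaling with TMM factors (trimmed mean of M values). The row named *APOB*, which stands for *apoba*, had 31.3, 33.8 and 16.2 TPM. *apobb.2* was low, with 3.00, 2.65 and 1.95 TPM. Within the ApoB genes *apobb.1* was therefore the highest in every pool and *apobb.2* the lowest, with no overlap of their ranges. *mttp*, the transfer protein, had 56.7, 44.7 and 35.9 TPM, and *pla2g12b*, which in zebrafish is needed for the secretion of normally sized lipoproteins, had 181, 195 and 86.4 TPM. *slc40a1*, the iron exporter ferroportin, was at 21.7, 20.6 and 15.7 TPM.

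*dgat2*, the diacylglycerol acyltransferase that is mutated in the siblings of these embryos, had 18.9, 9.53 and 2.54 TPM in the wild-type pools of clutches 2, 3 and 4, from 1328, 783 and 209 counts. It ranked 5200 among named genes by its mean. The 3 pools did not lie near each other, with clutch 2 the highest and clutch 4 the lowest. The ratio of the highest to the lowest pool was 7.42 on TPM and 6.42 on TMM-scaled CPM. Without clutch 4 the ratio on TPM was 1.98. This was the widest spread in the list, and the next on TMM-scaled counts were *apoa4b.2* with 2.90 and *apoa4b.3* with 2.80.

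The 9 genes of the list of acyltransferases and related genes were present at low levels, and their pools lay closer together than those of *dgat2*. *lpl*, the secreted lipoprotein lipase, was the highest of the list of acyltransferases and related genes, with 27.1, 23.4 and 19.9 TPM. *mogat2*, a monoacylglycerol acyltransferase that is also in the intestine list, had 18.2, 10.1 and 9.84 TPM. The *dgat1b* gene, an enzyme of the same reaction as *dgat2* from an unrelated family, had 11.9, 10.4 and 9.73 TPM and *dgat1a* had 8.26, 6.38 and 7.76 TPM, with ranges that did not overlap. *mogat3b* had 11.1, 8.68 and 6.12 TPM, and the row named *MOGAT1*, which the study calls *mogat3a*, had 9.04, 5.38 and 4.35 TPM. *tmem68*, an endoplasmic reticulum enzyme that makes triacylglycerol in mammalian cells, had 3.91, 4.41 and 3.81 TPM, and *tmx1* had 5.45, 3.27 and 4.75 TPM. *PNPLA2*, the row for adipose triglyceride lipase, was at 1.81, 1.15 and 1.34 TPM. On TMM-scaled counts none of these 9 genes differed by 2-fold between pools, against 9.58% of all genes with a mean of at least 1 TPM. Their median ratio of the highest to the lowest pool was 1.40, against 1.29 for all such genes. Of the 9, 6 were highest in clutch 2, against 34.2%. On TPM 1 gene, *MOGAT1*, had a ratio over 2, of 2.08, against 13.0% of all genes over 1 TPM.

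TPM shares 1 total among all genes, and *mt-atp8* alone took 6.16% of it in clutch 2, 11.4% in clutch 3 and 12.2% in clutch 4. The median gene was also shifted between pools on this scale, and how much of this shift *mt-atp8* accounts for was not tested. The median log2 ratio was 0.17 for clutch 2 over clutch 3, 0.24 for clutch 2 over clutch 4 and 0.07 for clutch 3 over clutch 4. On TMM-scaled counts it was within 0.01 of 0 for every pair, which that scaling is built to bring about. Because of the shift on TPM, differences between pools are read on TMM-scaled CPM. On this scale, 9.58% of the 18034 genes with a mean of at least 1 TPM differed by 2-fold or more between the highest and the lowest pool, against 13.0% on TPM. Of these genes, 858 passed the filter only through their highest pool, with a mean under 1 TPM in the others, and without them 7.04% differed by 2-fold on TMM-scaled counts. The clutch 4 pool was the lowest for 37.6% of the 18034 genes and the highest for 38.6%. The clutch 2 pool was the lowest for 36.0% and the highest for 34.2%, and the clutch 3 pool the lowest for 26.4% and the highest for 27.2%.

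Against this background, all 19 genes of the YSL lipoprotein list were lowest in clutch 4 and 7 of the 19 differed by 2-fold or more. The list held 2.74% of TPM in clutch 2, 2.69% in clutch 3 and 1.41% in clutch 4. Its sum on TMM-scaled counts was 1.89 times higher in the highest pool than in the lowest, and on TPM the ratio was 1.94 with all pools and 1.02 without clutch 4. The median member was 0.75 higher on the log2 scale in clutch 2 than in clutch 4, and 0.93 higher in clutch 3 than in clutch 4. Between clutches 2 and 3 the median log2 difference was -0.09. By the list's sum and median member, the clutch 4 pool thus stood apart from the other pools, and those pools differed little. Not every member followed this. On TMM-scaled CPM *apoc1* had 1515, 2243 and 1474 in clutches 2, 3 and 4, and *dgat2* had 28.2, 15.6 and 4.39.

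**Figure D3:**
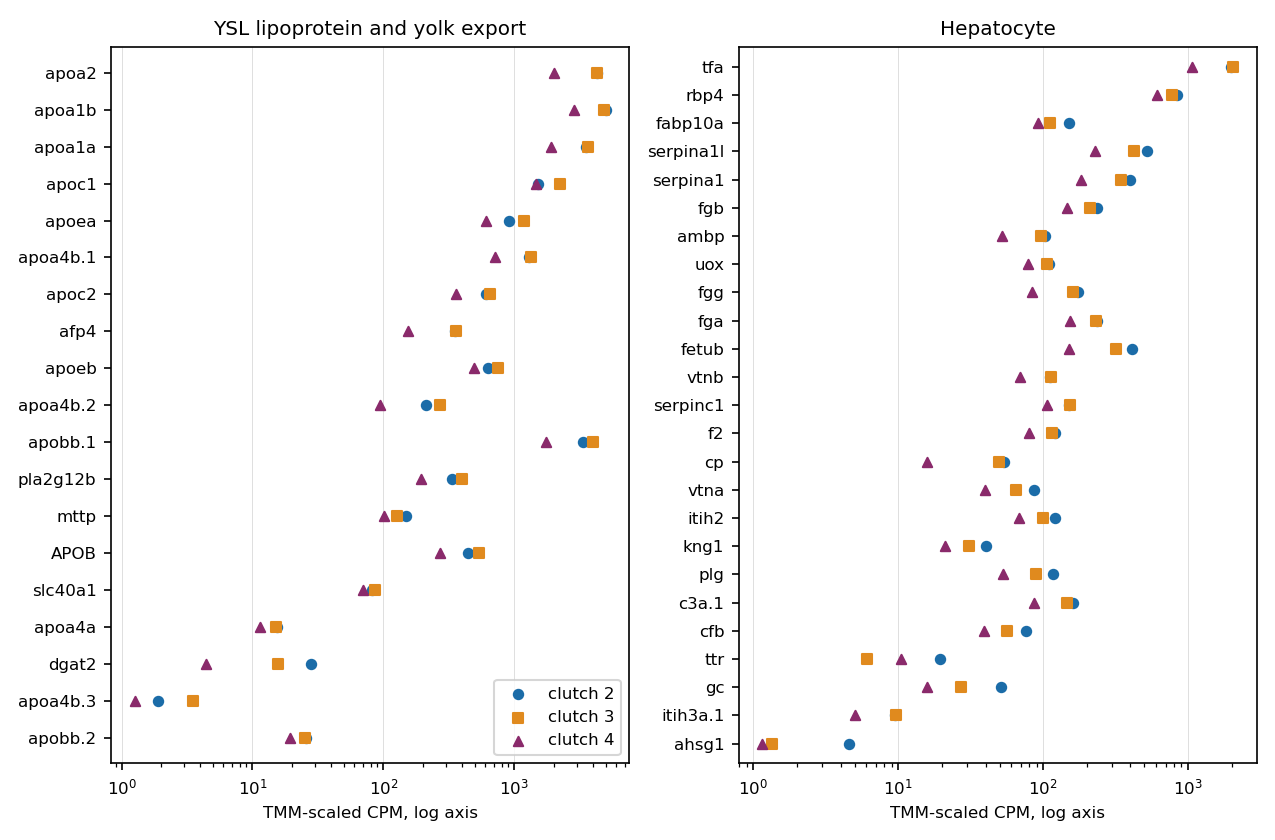
TMM-scaled CPM of the YSL lipoprotein genes (left) and the hepatocyte genes (right) with a mean of at least 1 TPM, in order of mean TPM, on log axes, with 1 point for each wild-type pool. The clutch 4 triangle is leftmost for all 19 YSL genes and for 24 of the 25 hepatocyte genes, the exception being *ttr*, and for *dgat2* the pools are spread from 4.39 to 28.2.

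The yolk protein digestion list, made of lysosomal genes, held 0.123%, 0.103% and 0.0772% of TPM in clutches 2, 3 and 4. Not all of its genes encode proteases, and how much of this share belongs to yolk breakdown was not tested. *ctsla*, a cathepsin L protease of the lysosome and the leading gene of this list, had 606, 477 and 262 TPM, lowest in clutch 4. *npc2.1*, a lysosomal cholesterol carrier, had 133, 128 and 112 TPM, and *ctsba*, a cathepsin B, had 114, 121 and 129 TPM. The cathepsin D gene *ctsd* had 106, 91.6 and 75.2 TPM, and *psap*, the precursor of the saposins, had 87.6, 79.6 and 64.7 TPM. *lgmn*, the protease legumain, was highest in clutch 2, with 62.9, 34.2 and 36.3 TPM. On TMM-scaled counts 6 of the 12 genes were lowest in clutch 4, against 37.6% of all genes over 1 TPM. None reached a 2-fold difference, against 9.58%, and *ctsla* had a ratio of 1.996. The vitellogenin genes, which encode the yolk proteins and are transcribed in the liver of the mother, were near absent. None of the 7 reached a mean of 1 TPM, and the highest, *vtg7*, had 0.153, 0.802 and 0.474 TPM.

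The hepatocyte list was led by genes of secreted plasma carriers and inhibitors. *tfa*, which encodes the iron carrier transferrin, had 1503, 1538 and 804 TPM and ranked 115 among named genes. The retinol carrier gene *rbp4* had 1016, 833 and 626 TPM. *fabp10a*, the liver fatty acid binding protein often used to mark zebrafish hepatocytes, had 770, 510.02 and 401 TPM. Each was lowest in clutch 4, and *rbp4* and *fabp10a* were highest in clutch 2 on TPM. The protease inhibitor genes *serpina1l* and *serpina1* had 381, 276 and 140 TPM and 302, 241 and 122 TPM. *fgb*, a chain of fibrinogen, had 139, 111 and 73.4 TPM. *rbp4* is transcribed in the YSL of zebrafish embryos as well, and the YSL list's apolipoproteins are also made in the liver, so the 2 lists do not separate these tissues fully.

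On TMM-scaled counts 24 of the 25 hepatocyte genes over 1 TPM were lowest in clutch 4, against 37.6% of all genes over 1 TPM. Of the 25, 21 were highest in clutch 2 (34.2% of all genes) and 10 differed by 2-fold or more (9.58%). The fetuin gene *ahsg1* (3.36, 0.880 and 0.723 TPM) passed the filter only through clutch 2, and without it the counts were 23, 20 and 9 of 24. The list held 0.523%, 0.440% and 0.271% of TPM in clutches 2, 3 and 4, and the ratio of the highest to the lowest pool was 1.93, or 1.19 without clutch 4. The largest ratio on TMM-scaled counts among these 24 was that of *cp* with 3.36. *cp*, the copper-carrying ferroxidase ceruloplasmin, had 47.6, 43.9 and 16.2 TPM. *gc*, the vitamin D carrier, had 34.4, 15.04 and 8.11 TPM. *ttr*, which carries thyroid hormone, went the other way between clutches 3 and 4, with 33.7, 9.30 and 15.2 TPM, and was the one gene of the 25 that was lowest in clutch 3. The median log2 difference was 0.72 for clutch 3 over clutch 4 and 0.16 for clutch 2 over clutch 3.

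The intestine list was led by genes of absorptive enterocytes, with the goblet cell gene *agr2* also among its leading genes. *fabp1b.1*, a fatty acid binding protein, had 771, 750 and 480 TPM. *rbp2a*, a cellular retinol binding protein, had 522, 503 and 307 TPM. Both were lowest in clutch 4, with clutches 2 and 3 close together. *fabp2*, the intestinal fatty acid binding protein, had 377, 264 and 291 TPM, and *cldn15la*, a tight junction claudin of the gut, had 151, 105 and 114 TPM. Their lowest pool was clutch 3. *agr2*, a goblet cell gene, was the most even of the leading genes, with 98.9, 85.1 and 84.1 TPM, and *vil1*, the microvillus protein villin, had 84.3, 47.6 and 53.7 TPM.

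Those 6 genes held 91.2% of the list's 0.186% of TPM, and the first, *fabp1b.1*, ranked 185 among named genes. On TMM-scaled counts 12 of the 18 intestine genes were highest in clutch 2, against 34.2% of all genes over 1 TPM. Of the 18, 13 were lowest in clutch 3 (26.4% of all genes) and 5 in clutch 4 (37.6%). A difference of 2-fold or more was seen in 5, against 9.58%. The largest ratios were 3.31 for the chitinase gene *chia.2* (23.2, 6.52 and 9.81 TPM), 3.08 for the peptide transporter gene *slc15a1b* (5.30, 2.26 and 1.46 TPM) and 2.74 for *chia.1* (6.67, 2.22 and 3.30 TPM). *fabp6*, the ileal bile acid binding protein, had 49.9, 21.0 and 50.2 TPM, with clutch 3 alone low. The list's sum was 0.175%, 0.143% and 0.137% of TMM-scaled counts in clutches 2, 3 and 4. It was lowest in clutch 4 by a small margin over clutch 3, although more of its genes were lowest in clutch 3. The median log2 difference was -0.18 for clutch 3 over clutch 4, against 0.93 for the YSL list and 0.72 for the hepatocyte list.

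Exocrine pancreas genes showed the widest differences between pools. *prss59.2*, a trypsin gene, had 564, 95.5 and 93.7 TPM in clutches 2, 3 and 4. *prss1*, also a trypsin gene, had 338, 60.8 and 71.0 TPM, and the chymotrypsinogen gene *ctrb.1* had 259, 20.1 and 24.0 TPM. The clutch 2 pool was far above the others, which were alike. The carboxypeptidase gene *cpa5* had 91.7, 17.3 and 16.3 TPM. The largest ratios on TMM-scaled counts were 21.7 for the elastase gene *ela2l* (25.5, 1.05 and 2.71 TPM), 18.4 for *ela2* (47.3, 2.30 and 4.49 TPM) and 11.7 for the trypsin gene *prss59.1* (121, 13.1 and 8.79 TPM).

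All 16 exocrine genes over 1 TPM were highest in clutch 2, against 34.2% of all genes over 1 TPM. All 16 differed by 2-fold or more, against 9.58%, as did all 15 without the gene that passed the filter through clutch 2 alone. The list held 0.170% of TPM in clutch 2 and 0.0273% and 0.0274% in clutches 3 and 4. Endocrine genes did not share this, although the islet lies in the same organ. *ins*, the insulin gene, had 109, 63.2 and 104 TPM, *sst2*, a somatostatin gene, had 41.0, 30.6 and 33.7 TPM, and *gcgb*, a glucagon gene, had 32.9, 24.6 and 31.3 TPM. None of the 8 endocrine genes over 1 TPM differed by 2-fold on TMM-scaled counts, against 9.58% of all genes over 1 TPM. Their median log2 difference between clutches 2 and 4 was 0.01, against 2.30 for exocrine genes.

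**Figure D4:**
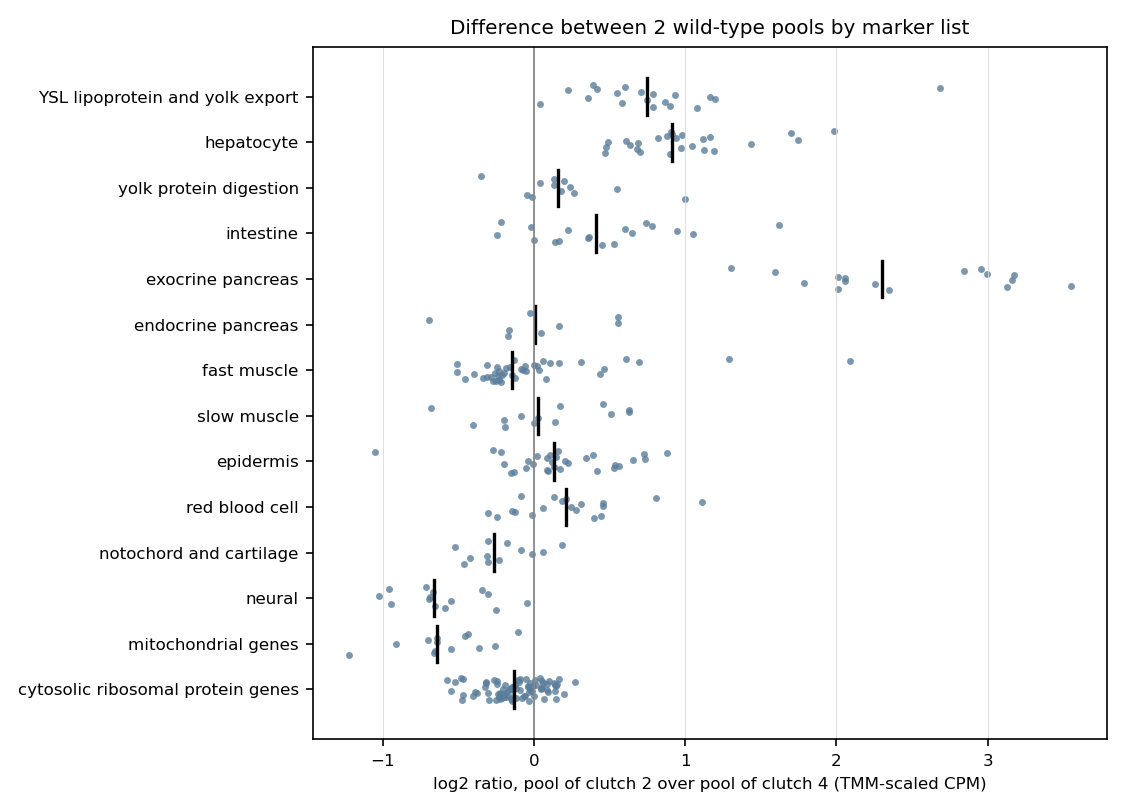
The log2 ratio of the clutch 2 pool over the clutch 4 pool on TMM-scaled CPM, with 1 point for each gene with a mean of at least 1 TPM and a black bar at the median of each list. Exocrine pancreas lies farthest right (median 2.30), hepatocyte (0.91) and YSL (0.75) genes lie right of 0, and neural (-0.66) and mitochondrial (-0.64) genes lie left of it.

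Fast muscle genes lay close together in the 3 pools. *pvalb2* had 36788, 33502 and 36273 TPM and *pvalb1* had 34051, 30339 and 34798 TPM. *tpma* had 19469, 15345 and 16128 TPM, and *mylz3*, a myosin light chain, had 16500.4, 13046 and 14291 TPM. The regulatory light chain gene *mylpfa* had 10958, 11797 and 12747 TPM and *atp2a1*, the calcium pump of the sarcoplasmic reticulum, had 10146, 8969 and 7609 TPM. The spread of these 6 genes was narrow, with ratios of the highest to the lowest pool between 1.09 and 1.37 on TMM-scaled counts. They held 68.8% of the fast muscle list. Of the 41 genes of the list, 28 were highest in clutch 4 on TMM-scaled counts, against 38.6% of all genes over 1 TPM. A further 11 were highest in clutch 2. The list's sum was 17.6%, 17.8% and 20.3% of TMM-scaled counts in clutches 2, 3 and 4, but 18.5%, 16.5% and 17.7% of TPM.

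Troponins and creatine kinases were not far behind. *tnnt3b*, a fast troponin T, had 7578, 7215 and 7017 TPM, and the fast troponin I gene *tnni2a.4* had 6607, 6249 and 6782 TPM. The creatine kinase gene *ckmb* had 5243, 4595 and 5414 TPM. On TMM-scaled counts 2 of the 41 fast muscle genes differed by 2-fold or more. The share of all genes over 1 TPM was 9.58%, or 7.04% without those that passed through their highest pool alone. The genes were *myha* (22.2, 16.1 and 4.43 TPM, a ratio of 4.26) and the low row *TNNC2* (6.15, 2.48 and 2.13 TPM, a ratio of 2.45). Next was *myhb* with 1.62. *myha* and *myhb* are myosin heavy chain genes that share long stretches with *myhz1* genes, so the split of reads among them is uncertain. The actin genes *actc1b*, *acta1b* and *acta1a* are near-identical in the same way, and *actc1b* alone had 14547, 11889 and 12159.9 TPM.

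Slow muscle genes were present at a much lower level. The light chain genes *myl13* and *myl10* had 527, 473 and 509.6 TPM and 457, 434 and 512 TPM. *tnnc1b*, a slow troponin C, had 301, 292 and 294 TPM, and *smyhc1*, the first slow myosin heavy chain gene, had 184, 156 and 155 TPM. On TMM-scaled counts none of the 13 slow muscle genes differed by 2-fold, against 9.58% of all genes over 1 TPM. The list's sum differed 1.06-fold between pools on that scale. Heart muscle was detectable, and *myl7*, the cardiac light chain used to mark the zebrafish heart, had 55.1, 48.0 and 75.8 TPM. All 10 cardiac genes were over 1 TPM. On TMM-scaled counts *nppb* alone differed by 2-fold or more (9.58% of all genes did), with 1.59, 2.50 and 3.23 TPM.

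In the skin, keratin genes led. *krt4*, a keratin of the outer layer, had 3399, 3571 and 3204 TPM and ranked 33. *icn*, which encodes the calcium binding protein ictacalcin, had 2701, 3360.3 and 2511 TPM and *cyt1*, a type I keratin, had 2207, 2223 and 1719 TPM. The basal cell keratin gene *krtt1c19e* had 1479, 1317 and 934 TPM, *cyt1l* had 1279, 1267 and 1017 TPM and *krt5* had 925, 941 and 696 TPM. On TMM-scaled counts the ratios of the highest to the lowest pool were between 1.18 and 1.39 for these 6 genes. On that scale *krt4* and *icn* were lowest in clutch 2 and the other 4 in clutch 4, whereas on TPM all 6 were lowest in clutch 4. They held 78.7% of the list's TPM.

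Of 31 epidermal genes over 1 TPM, 22 were lowest in clutch 4 on TMM-scaled counts, against 37.6% of all genes over 1 TPM. In clutch 3 18 were highest, against 27.2%, and 2 differed by 2-fold or more, against 9.58%. These were *anxa1b* (17.5, 22.3 and 8.08 TPM), an annexin, and *krt96* (9.93, 12.4 and 17.5 TPM), which ran the opposite way. *tp63*, the transcription factor of basal keratinocytes, was even at 12.5, 12.9 and 12.3 TPM. Skin ionocytes, which exchange ions with the water, were visible through *atp1b1b* with 44.6, 30.9 and 28.7 TPM, *ca2* with 44.1, 28.8 and 29.1 TPM and the fate gene *foxi3a* with 7.83, 5.43 and 4.31 TPM. On TMM-scaled counts 11 of the 12 ionocyte genes over 1 TPM were highest in clutch 2, against 34.2% of all genes over 1 TPM. Of the 12, 1 differed by 2-fold or more, against 9.58%.

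Blood was dominated by embryonic globins. The beta globin genes *hbbe1.1*, *hbbe1.3* and *hbbe1.2* had 1799, 1256 and 1157 TPM, 1086, 1475 and 1093 TPM, and 541, 727 and 567 TPM. The alpha globin genes *hbae3* and *hbae1.1* had 1538, 1110.2 and 976 TPM, and 821, 917 and 704 TPM. Which pool was highest differed between neighbouring copies, clutch 2 for *hbbe1.1* and *hbae3* and clutch 3 for the other 3. These copies are nearly identical, so the split of reads among them is uncertain, and their sum is the firmer value. The 6 leading globin genes held 91.3% of the list, which took 0.690%, 0.656% and 0.547% of TPM. As globin transcripts are short, the same list took 0.280% of CPM.

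The red cell enzymes and membrane genes were at far lower levels than globins. *cahz*, the red cell carbonic anhydrase, had 26.5, 21.6 and 19.0 TPM, and *alas2*, the first enzyme of haem synthesis, had 11.3, 8.86 and 6.99 TPM. The minor globin *hbbe3* (0.940, 2.00 and 0.729 TPM) passed the filter only through clutch 3. Of the other 18 genes over 1 TPM, 2 differed by 2-fold or more on TMM-scaled counts, against 7.04% of all genes filtered in the same way. They were the minor globin *hbae5* (2.28, 2.71 and 1.297 TPM) and the anion exchanger gene *slc4a1a* (8.87, 6.62 and 3.48 TPM). White cell genes were at low levels. *lyz*, the lysozyme gene, had 65.6, 67.7 and 68.1 TPM and held 68.1% of the leukocyte list, while the neutrophil gene *mpx* had 2.00, 1.55 and 1.26 TPM. Endothelial genes were likewise low, with *plvapb* at 28.2, 26.7 and 22.3 TPM and *kdrl*, a receptor of vascular endothelial growth factor, at 7.06, 5.48 and 4.16 TPM.

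Neural genes, for which the trunk holds the spinal cord, were highest in the clutch 4 pool. *gfap*, a glial filament gene, had 192, 166 and 194 TPM, *snap25a*, a synaptic gene, had 144, 123 and 158 TPM, and *stmn1b* had 63.2, 57.9 and 103 TPM. All 14 neural genes were highest in clutch 4 on TMM-scaled CPM, against 38.6% of all genes over 1 TPM. On TPM *mbpa* was instead highest in clutch 2 and *sox2* in clutch 3. On TMM-scaled CPM *snap25b* alone differed by 2-fold or more (9.58% of all genes did), with 24.7, 15.7 and 39.2 TPM. The list's sum on TMM-scaled counts was 1.43 times higher in the highest pool than in the lowest. Notochord and cartilage genes were led by *col2a1a*, a type II collagen, with 330.1, 360.3 and 385 TPM, *col9a1b* with 248, 263 and 257 TPM and *matn3a* with 184, 171 and 183 TPM. Of these 12 genes 9 were lowest in clutch 2 on TMM-scaled CPM, against 36.0% of all genes over 1 TPM. On TPM 5 of the 12 were, for which no share of all genes was computed. None differed by 2-fold on TMM-scaled CPM, against 9.58%. Whether more trunk and less yolk sac entered the clutch 4 pool was not tested.

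The lens and retina list, which marks a part of the removed head, was near 0. None of the 18 lens and retina genes had a mean of 1 TPM, and the highest, *pde6ha*, had 0.393, 0.270 and 0.757 TPM from 6, 6 and 11 counts. The crystallin gene *cryaa* had 7, 15 and 26 counts. Of the hatching gland genes, whose gland lies on the kept yolk as well as on the head and so says nothing of the trimming, *he1.1* had 1.55, 3.10 and 4.43 TPM and *he1.3* had 0 counts in every pool. A count of 0 allows up to 3 counts, or 0.0653, 0.0601 and 0.0613 CPM in clutches 2, 3 and 4, which covers counting error only.

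Genes used by every cell also differed in places. On TMM-scaled counts 11 of the 13 mitochondrial genes were highest in clutch 4, against 38.6% of all genes over 1 TPM. All 13 were lowest in clutch 2, against 36.0%. On TPM *mt-nd6* was the exception, with 109, 97.9 and 99.3 TPM. *mt-co1*, a subunit of cytochrome c oxidase, had 9343, 9901 and 10202 TPM, *mt-co2* had 13324, 15673 and 17917 TPM and *mt-nd3* had 4959, 6454 and 7930.4 TPM. Among these 13 *mt-atp8* differed by 2-fold or more on TMM-scaled counts, against 9.58% of all genes over 1 TPM, and none did on TPM, against 13.0%. None of the 84 ribosomal protein genes did on TMM-scaled counts. On that scale 60 of the 84 were highest in clutch 4, against 38.6% of all genes over 1 TPM, and 21 in clutch 2. On TPM the order was reversed, with 62 highest in clutch 2 and 21 in clutch 4. No share of all genes was computed for these TPM counts. The ribosomal list's sum was 6.61%, 6.43% and 7.06% of TMM-scaled counts in clutches 2, 3 and 4, but 15.5%, 13.5% and 14.4% of TPM. *rps20* had 6397, 9013 and 8448 TPM. *rpl39*, among the shortest of them, had 8590, 3184 and 5470 TPM, a ratio of 2.698 that was 1.39 on TMM-scaled counts.

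Over all genes the pools agreed closely. On log2(TPM + 1), Pearson's correlation across 32520 genes was 0.979 between clutches 2 and 3, 0.972 between clutches 2 and 4 and 0.978 between clutches 3 and 4. These include many genes at or near 0. Across the 18034 genes with a mean of at least 1 TPM it was 0.960, 0.948 and 0.958 for the same pairs. Genes are not independent replicates, and the values describe these libraries. Of the 25 highest named genes of each pool, 21 were shared by every pool, and of the 100 highest, 90 were. The median gene over 1 TPM had a ratio of the highest to the lowest pool of 1.36 on TPM and 1.29 on TMM-scaled counts, and 1 gene in 10 had a ratio of 1.97 or more on the latter. The biological coefficient of variation from edgeR, fitted with 1 mean for each gene, was 22.0% over 22494 genes. It was 19.5% without clutch 2, 23.6% without clutch 3 and 16.9% without clutch 4.

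The 12 named genes with the widest TPM ratio among those with a mean of at least 10 were all small noncoding RNA rows with a pool at 0, which poly(A) selection captures poorly and which exist in many copies. They were rows of 5.8S and 5S ribosomal RNA, of the spliceosomal and nucleolar RNAs U1, U3, U4, U6 and SNORD14, and of the microRNA dre-mir-219-2. A pool at 0 makes the ratio infinite, so these 12 rows were picked among tied ratios by mean TPM. Some, such as dre-mir-219-2 (0, 103 and 0 TPM) and the U6 row (0, 36.9 and 0 TPM), passed the filter through clutch 3 alone. The row of 5.8S rRNA among the 25 highest named genes was listed at 0, 13188 and 8739 TPM from 0, 4241 and 2808.5 counts, and a further copy had 3709, 708 and 0 TPM. Among named genes with a mean of at least 10 TPM and at least 50 counts in each pool, the latter a limit chosen after the values were seen, the 6 widest TMM ratios were those of pancreatic enzyme genes, and *dgat2* was in place 9. Other genes there, also named after their values were seen, were *lect2.1*, *pck1*, which encodes a gluconeogenic enzyme, and *apoda.2*. *lect2.1* had 67.1, 28.3 and 15.3 TPM. *pck1* had 32.5, 14.5 and 8.16 TPM. *apoda.2*, an apolipoprotein D gene, had 137, 32.2 and 35.1 TPM, the clutch 2 pattern of the exocrine genes.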

How the data were processed

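RNA from 3 wild-type pools of 6 mid-sections at 3 dpf was described. Per the study's methods, the authors made poly(A) libraries, filtered ribosomal RNA reads, mapped with STAR 2.7.9a to GRCz11 and quantified with Salmon 1.10.1. The deposited estimated counts, as the authors' pipeline gave them, are not scaled for depth. The deposited TPM values are scaled for transcript length and sum to 1000000 in each library. Whether counting used strand is not given in the sources used here. Mutant libraries were not used.

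Means, SDs and ratios were computed with numpy 2.4.6 and pandas 2.3.3. TMM factors and dispersion came from edgeR 4.0.16 in R 4.3.3, on counts rounded to whole numbers and genes with at least 10 counts in at least 2 pools, and were tested on simulated data. DESeq2 1.42.0 gave alternative size factors only. Marker lists held 350 symbols, of which 343 were found, 36 under another name. Members and lists were chosen with earlier results of these data known. Named in the text were the 25 highest named genes, up to 6 of the highest and up to 3 of the widest ratio in each list, the 12 widest ratios over 10 TPM and the study's genes, and any others are illustrations of a list. Alternatives were other averages, length scaling, size factors, filters and pseudocounts, leaving out mitochondrial or very short genes, and leaving out each pool. No sequences were printed, as no sequence table was used here.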

Additional observations from a re-analysis of the deposited data

How the results depend on the processing

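No paired analysis was possible because only 1 group of samples was described. The share of TPM held by the 25 highest named genes was 37.0%, and became 25.2% by CPM and 28.4% without mitochondrial genes. The shares of other lists were likewise set by what the total holds. Without mitochondrial genes the share was 21.5% for fast muscle, 1.80% for epidermis, 0.771% for red blood cell and 0.227% for intestine genes. With *mt-atp8* and 5.8S rRNA left out, an alternative chosen after seeing the data, it was 19.7% for fast muscle and 0.708% for red blood cell. By CPM it was 2.19% for epidermis and 0.280% for red blood cell. The clutch 4 pool decided the pool ratios of the YSL and hepatocyte lists, which ranged from 1.02 to 1.94 and from 1.19 to 1.93 when each pool was left out in turn. The percentage of genes that differed by 2-fold on TPM was 13.0 with all pools and ranged from 5.44 (without clutch 4) to 9.53 (without clutch 3), as 2 pools give a smaller ratio than 3. It was 6.94% at a mean of at least 10 TPM and 4.65% with no filter and a pseudocount of 1. The lowest correlation between pools ranged from 0.972 to 0.979 with each pool left out, and was 0.962 with a pseudocount of 0.1, 0.989 on TMM-scaled counts and 0.939 at a mean of at least 10 TPM. Of all values recomputed, 82 summary values and 196 for further lists and genes moved by less than the spread between pools or by no more than 1.5 times. The other 21 summary values and 49 values for further lists and genes moved by more. Depth limits the genes with few counts, such as those of the lens and retina, and with 1 pool for each clutch the number of pools limits the rest.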
